A study of Mus musculus with 8 samples.

Results

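The comparison described here set an Acss2 hairpin vector against a control vector in the dorsal hippocampus of mice that stayed in the home cage, without training. It rests on 4 of the 8 libraries of the study: hairpin libraries KD.253 and KD.255 and control libraries eGFP.254 and eGFP.268, each called by the last part of its column name in the deposited table. All mice were male C57BL/6J, aged 10 to 12 weeks, and all received an adeno-associated virus, AAV2/9, in the dorsal hippocampus, followed by 3 weeks of waiting. The hairpin vector carried a short hairpin RNA against Acss2 behind the U6 promoter and EGFP behind the CMV promoter. The control vector carried EGFP behind CMV and no hairpin cassette, so loss of Acss2 and the presence of a hairpin RNA cannot be told apart in any value below. The study crossed these vectors with object training, with 2 libraries in each of 4 groups, and sequenced polyadenylated RNA. Whether each library is 1 mouse is not in the labels, and p-values therefore measure a spread between libraries that may be partly technical.

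Acss2 makes acetyl-CoA from acetate, and in neurons the enzyme is found in the nucleus, where acetyl-CoA is the donor for histone acetylation. Interferons are secreted proteins that bind receptors on neighbouring cells and act through Jak kinases, Stat proteins and Irf factors on a response element in the promoters of antiviral genes. The products of those genes include RNA sensors, proteins that block viral RNA and translation, GTPases that attack the compartments of intracellular pathogens, antigen-presenting molecules and chemokines. In the brain, microglia and astrocytes are prominent sources of such transcripts, and neurons express the sensors and receptors too.

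Levels are normalized read counts, that is reads divided by 1 size factor per library as deposited, and are given in the order eGFP.254, eGFP.268, KD.253, KD.255. Reads in genes came to 7552478, 9863728, 6537749 and 272456 in that order. KD.255 was therefore very shallow: 1 read there was worth 15.6 normalized counts, against 0.444 to 0.659 in the other 3 libraries. A count of 0 is compatible with up to 3 reads, which in KD.255 came to 46.7 normalized counts. Of 12681 tested genes, those with a mean of at least 10 normalized counts over all 8 libraries, 823 had no read in KD.255, against at most 6 in any other home-cage library. Across genes, chi-square divided by its degrees of freedom was 2.08 between the 2 hairpin libraries and 25.0 between the 2 control libraries. Each pair thus differed beyond sampling noise. The ratio grows with depth, so with KD.255 in 1 pair the 2 values do not rank how well the pairs agree. The control library eGFP.254 stood apart in choroid plexus genes: transthyretin, Ttr, stood at 15080 there and at 133, 341 and 482 in the other 3 libraries.

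Acss2, the target of the hairpin, is a protein-coding gene on the plus strand of chromosome 2 (155517948 to 155585724 in GRCm38) and was read first as a check of the labels. Its level was 58.2 and 82.0 in the control libraries and 25.0 and 15.6 in the hairpin libraries, from 100, 185, 38 and 1 reads. Both hairpin libraries lay below both controls, and the value in KD.255 was a single read where 4.51 would have stood at the control mean. The exact counting interval of that read ran from 0.394 to 86.7 normalized counts and reached past both controls, so the shallow library alone did not show a lower level. The log2 difference was -1.76 (SE 0.47) and did not pass over all tested genes, with an adjusted p of 0.798 by limma and 0.532 by edgeR's quasi-likelihood test.

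The genes called between the vectors were mostly genes of the interferon response, and all were higher with the hairpin vector. By limma, the main test, 0 of 12681 genes passed at an adjusted p under 0.05, which is 0% of those tested, with 571 genes at an unadjusted p under 0.05 where 634 would fall by chance if no gene differed. The lowest adjusted p was 0.168. On the reads recovered from the deposited values, edgeR called 23 genes, or 0.181%, and DESeq2 called 55, or 0.434%, all of them higher. The 55 included all 23, and 20 of the 23 were members of the gene lists described below. Those 23 genes were Ccl5, Ifit3, Slfn8, Irf7, Rsad2, Trim30a, Ifit2, Ddx60, Usp18, Ifit3b, Irgm1, Oas1a, Oasl2, Ifit1, Gbp6, Cxcl10, Pyhin1, Gbp7, H2-D1, Gm4841, Cd274, Igtp and Oas2. Their limma log2 differences ran from 2.31 for H2-D1 to 5.81 for Cxcl10 and their edgeR adjusted p from 0.00200 to 0.0379. As a background for the counts below, 9279 tested genes had a mean over the 4 libraries of at least 3 reads in KD.255, called enough reads from here on. In 14.0% of these both hairpin libraries lay above both controls, and in 16.0% below both. The mean includes the hairpin libraries. A gene with a control mean under 46.7 therefore has enough reads only if it is higher with the hairpin vector. For lists with such genes, counts above both controls are partly fixed by this limit and cannot be set against the 14.0%. The minimum mean for a tested gene includes the hairpin libraries too. A call below means an edgeR or DESeq2 call and names the tool.

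**Figure D1:**
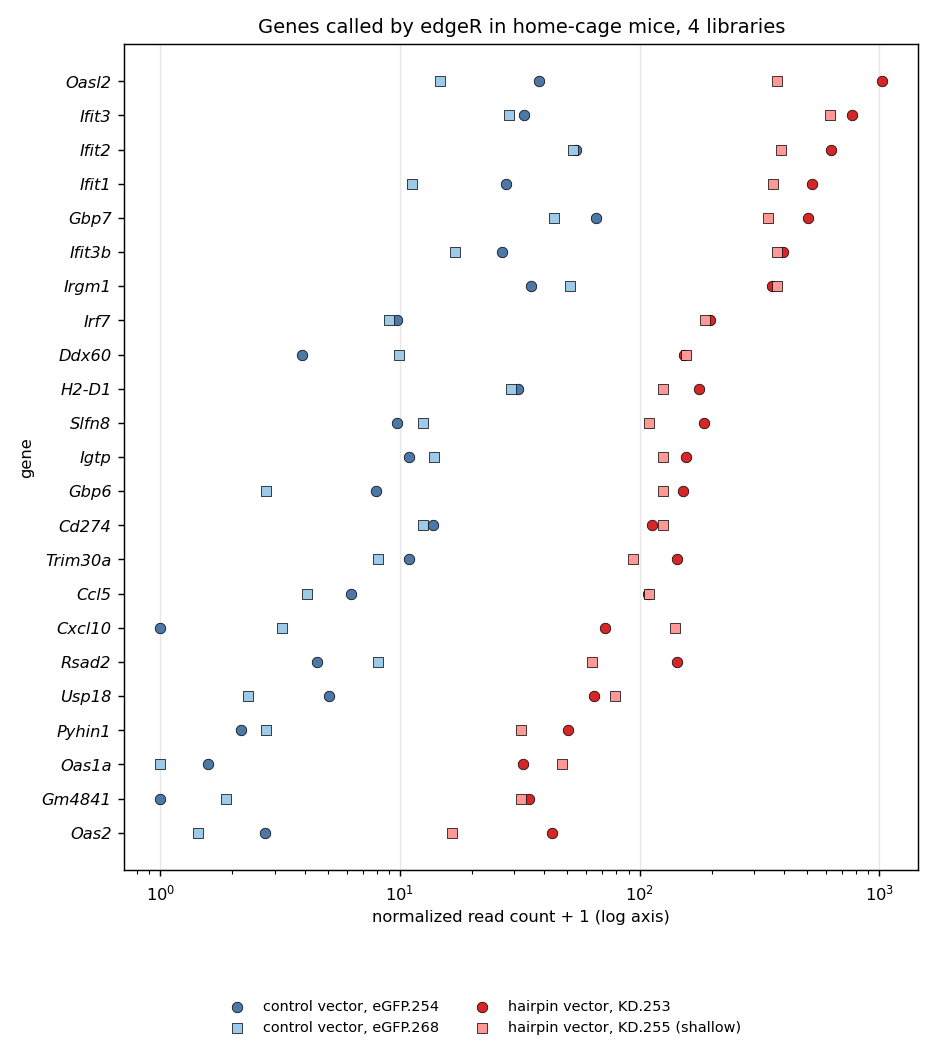
Normalized read count plus 1 (log axis) of the 23 genes called by edgeR, with 1 point per home-cage library: blue for the control vector, red for the hairpin vector, and squares for eGFP.268 and KD.255. Both red points lie to the right of both blue points in all 23 genes; Ccl5, for example, stood at 107 and 109 against 5.23 and 3.10.

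The shallow library held these genes in few reads, but in more reads than the control level would give. Summed over the 23 genes, KD.255 had 282 reads, where the control mean would give 22.5, and KD.253 had 9128 reads, against 654 and 719 in the deeper control libraries. For 22 of the 23 genes the exact 95% counting interval of KD.255 lay above both control values, with Oas2 the exception at 1 read. The 23 genes were called on these same reads, so neither the sums nor the intervals are separate evidence of higher levels in KD.255. Oas1a, Pyhin1, Gm4841 and Oas2 had at most 3 reads in KD.255, so their size there is poorly set. The number of calls rested on each of the 4 libraries: edgeR called 0 genes without KD.253 and 0 without eGFP.268, 1 without eGFP.254 and 1 without KD.255. All 23 genes kept a positive difference under each of these. Both hairpin libraries lay above both controls in all 23, so this sign was fixed beforehand and does not measure stability. Without KD.255 and the other shallow library of the study, the trained KD.251, edgeR called 100 genes, the same 23 among them, and limma 67, with 17 of the 23. In bulk tissue, a change in the number of cells of a type and a change in RNA per cell cannot be told apart for any of these genes.

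Many of these genes shared a promoter element. The interferon-stimulated response element core (GAAA, any pair of bases, GAAA, on either strand, overlapping matches counted) was searched in windows of 300 bases, 250 before to 50 after each start site, from RefSeq on GRCm38.p6. It was present for 12 of the 17 edgeR-called genes that had a window, for 15 of 31 antiviral effectors and for 9 of 10 interferon-induced GTPases. Among all 32851 windows, 3.44% held it, and among tested genes 3.68%. It was present for 1 of 21 sterol and fatty acid synthesis genes and for 0 of 6 with a window among the 10 lower genes described below. The Stat site (TTCC, any base, GGAA) was found for 2 of the 17 genes, against 1.15% of all windows, and the kappa-B site (GGGA, any base, TTTCC) for 0, against 0.411%. A match describes letters in a window and is not a measured binding site.

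The stretches that hold the element in 9 of the called genes are printed 5′ to 3′ on each gene's own strand, with the matches in capitals. They are shown because these genes carry the result and belong to different roles: antiviral effectors first, then GTPases, then a chemokine. A match reading TTTC, a pair of bases, TTTC is the element on the opposite strand.
Ifit3 (chr19:34583348-34583441, plus strand): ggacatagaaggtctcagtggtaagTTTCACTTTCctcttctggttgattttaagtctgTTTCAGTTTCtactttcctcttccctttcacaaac
Ifit1 (chr19:34640760-34640838, plus strand): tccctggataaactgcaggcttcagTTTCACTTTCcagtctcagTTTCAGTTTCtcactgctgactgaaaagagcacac
Rsad2 (chr12:26456538-26456597, minus strand): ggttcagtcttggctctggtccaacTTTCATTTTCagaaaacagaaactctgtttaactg
Ddx60 (chr8:61928009-61928086, plus strand): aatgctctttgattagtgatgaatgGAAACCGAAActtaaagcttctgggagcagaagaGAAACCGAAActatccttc
Oas1a (chr5:120907526-120907570, minus strand): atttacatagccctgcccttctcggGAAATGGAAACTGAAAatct
Irgm1 (chr11:48871421-48871475, minus strand): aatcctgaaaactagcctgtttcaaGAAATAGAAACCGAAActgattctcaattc
Gbp7 (chr3:142530258-142530317, plus strand): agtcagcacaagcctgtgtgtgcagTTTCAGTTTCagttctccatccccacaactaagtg
Igtp (chr11:58199497-58199555, plus strand): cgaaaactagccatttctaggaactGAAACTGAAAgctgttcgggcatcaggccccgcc
Cxcl10 (chr5:92349068-92349127, minus strand): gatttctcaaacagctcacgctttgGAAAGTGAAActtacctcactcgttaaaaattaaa

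Ifit3, Ifit1, Ddx60, Oas1a and Irgm1 each held 2 matches, and in Oas1a and Irgm1 the 2 matches overlap by 1 copy of GAAA. The stretch of Ifit3 is repeated letter for letter over 94 bases in its neighbour Ifit3b. The distance from the last base of the match to the RefSeq start site ran from 4 bases in Oas1a to 203 in Cxcl10 among the 9 genes.

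At the start of the pathway, no gene of the interferon receptors was called by edgeR or DESeq2. Ifnb1 and Ifng, which encode interferon beta and gamma, fell under the minimum mean and were not tested. They had no read in any of the 4 libraries, which allows up to 1.74, 1.33, 1.98 and 46.7 normalized counts. The receptor chain genes Ifnar1 (272, 214, 260 and 233) and Ifnar2 (151, 92.3, 138 and 109) overlapped between the vectors. The kinase gene Jak1 overlapped as well, at 564, 921, 608 and 653. Other genes of this step lay somewhat higher in both hairpin libraries. The interferon gamma receptor genes Ifngr1 (73.9, 61.6, 101 and 93.3) and Ifngr2 (151, 165, 182 and 187) did so. The kinase genes Jak2 (230, 263, 305 and 373) and Tyk2 (56.4, 59.4, 69.9 and 62.2) did so too. KD.255 held 6 reads of Ifngr1, 12 of Ifngr2, 24 of Jak2 and 4 of Tyk2. The counting interval of each reached down to the higher control value, so KD.255 alone did not show a higher level.

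Genes of the factors downstream of the receptor were higher in both hairpin libraries. Irf7, the factor that amplifies interferon production (chromosome 7, 141262706 to 141266481, minus strand), stood at 8.72 and 7.98 in controls and at 195 and 187 in hairpin libraries, the last from 12 reads. Its log2 difference was 4.36 (SE 0.69), with an edgeR adjusted p of 0.0331 and a limma adjusted p of 0.268. Usp18, which removes the ubiquitin-like Isg15 from proteins and dampens receptor signalling, stood at 4.07, 1.33, 63.3 and 77.8 and was called by edgeR (4.37, SE 0.90, adjusted p = 0.0363). The hairpin libraries lay far above the controls in both genes, with no overlap.

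Stat2 and Irf9 belong to the complex that binds the response element. Stat2 stood at 187, 159, 507 and 373, and Irf9 at 64.0, 39.9, 261 and 187. Neither was called by edgeR, and Irf9 was called by DESeq2 (adjusted p = 0.00190). Of 17 tested interferon signalling genes 14 were higher and 3 lower, with a median of 0.52, where all tested genes had a median of -0.05 and quartiles of -0.32 and 0.19. Of 12 members with enough reads 9 lay above both controls and 0 below. Irf7 and Isg15 among them, with control means of 8.35 and 4.02, had enough reads only through the hairpin libraries. The 3 lower members, Jak1, Irf3 and Irf8, include 2 with no read in KD.255.

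Several genes of RNA sensors were higher in both hairpin libraries. Ddx58, which encodes the sensor RIG-I, stood at 30.8, 29.3, 277 and 358, with 23 reads in KD.255. Ifih1, which encodes the sensor MDA5 (GRCm38, chromosome 2), stood at 19.8, 26.6, 207 and 171, a log2 difference of 2.98 (SE 0.62) that DESeq2 called (adjusted p = 0.000105) and edgeR did not (0.0672). Eif2ak2, the kinase PKR that is switched on by double-stranded RNA, stood at 59.3, 55.9, 326 and 342. In these 3 sensors both hairpin libraries exceeded both controls by several times the gap within either pair. The receptor gene Tlr3 showed a smaller gap, at 79.7, 86.0, 177 and 140.

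Of 14 tested sensor and adaptor genes, 11 were higher and 3 lower, with a median of 1.03. Only 4 had enough reads, and all 4 lay above both controls there. Of these, Ddx58 and Ifih1, with control means of 30.0 and 23.2, had enough reads only through the hairpin libraries. The summed list had 605, 767, 2257 and 76 reads, and KD.255 would have had 22.2 at the control mean (exact interval of the 76 reads, 59.9 to 95.1). Levels of the adaptor genes Mavs (28.5, 25.7, 53.4 and 15.6) and Ticam1 (33.2, 14.2, 31.0 and 15.6) overlapped.

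The antiviral effectors were the list with the most called genes. All 33 tested members had a positive difference, with a median of 3.11. edgeR called 11 and DESeq2 21. Of 23 members with enough reads, 22 lay above both controls in both hairpin libraries and 0 below. Ifit1, Ifit3, Ifit3b, Oasl2, Rsad2, Ddx60, Slfn8, Trim30a, Rtp4 and Parp14 among them had control means from 5.29 to 29.7. They had enough reads only through the hairpin libraries, so the count of 22 is partly fixed by that limit. The summed reads were 1621 and 1724 in controls, 12658 in KD.253 and 355 in KD.255 (interval 319 to 394), where the control mean would give 54.9. Relative to the control mean the list stood at 9.77 in KD.253 and 6.47 in KD.255.

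The Ifit genes encode tetratricopeptide proteins that bind viral RNA. Ifit3 (chromosome 19, 34583531 to 34588731, plus strand) stood at 32.0 and 27.5 in controls and at 768 and 622 in hairpin libraries, from 55, 62, 1166 and 40 reads. Its log2 difference was 4.50 (SE 0.58), with an edgeR adjusted p of 0.0323 and a limma adjusted p of 0.168. Under every alternative tried its difference stayed between 4.14 and 4.84. Ifit1 stood at 26.8, 10.2, 525 and 358, and Ifit2 at 53.5, 51.9, 629 and 389. Both hairpin libraries lay far above both controls in all of these, with KD.255 below KD.253. For Ifit2 the counting interval of KD.255, 252 to 574, did not reach the KD.253 value. The neighbours Ifit3 and Ifit3b are so alike in sequence that the split of their reads is uncertain.

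Several further effectors showed the same separation. Rsad2, viperin, which blocks viral RNA synthesis, stood at 3.49, 7.10, 142 and 62.2. Oasl2, of the oligoadenylate synthetase family that responds to double-stranded RNA, stood at 37.2, 13.7, 1029 and 373, and so was lower in KD.255 than in KD.253. Ddx60, a helicase that assists RIG-I, stood at 2.91, 8.87, 152 and 156. Trim30a stood at 9.89, 7.10, 142 and 93.3, and Slfn8, a Schlafen protein, at 8.72, 11.5, 184 and 109. All 5 were called by edgeR, with adjusted p between 0.0331 and 0.0363.

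Members with very few control reads give a level and no stable fold. Oas1a had 1 and 0 reads in controls, 48 in KD.253 and 3 in KD.255. Oas2 had 42.2 and 15.6 normalized counts in the hairpin libraries against 1.74 and 0.444. The ubiquitin-like modifier gene Isg15 stood at 5.82, 2.22, 139 and 62.2 and was not called by edgeR (adjusted p = 0.206). Rtp4, Parp14 and Herc6 lay above both controls in both hairpin libraries and were called by DESeq2 and not by edgeR. Parp12, at 54.7, 43.5, 199 and 46.7, was the 1 member with enough reads whose libraries overlapped. Samhd1, which depletes nucleotides, showed a small gap at 80.3, 88.3, 156 and 109.

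The interferon-induced GTPases, the Gbp and Irg families, had the highest median of the 29 lists, 3.32. All 13 tested members were higher, edgeR called 4 and DESeq2 8, and 11 of 11 with enough reads lay above both controls. Gbp6, Igtp, Iigp1, Gbp2, Gbp3 and Irgm1, with control means from 4.38 to 42.2, had enough reads only through the hairpin libraries. The count of 11 is therefore largely fixed by that limit. The summed reads were 463, 555, 4835 and 141 (interval 119 to 166), where KD.255 would have had 16.6 at the control mean. The list thus stood at 12.4 times the control mean in KD.253 and 8.51 times in KD.255.

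Irgm1, which governs the other Irg proteins and autophagy (chromosome 11, 48861968 to 48871683, minus strand), stood at 34.3, 50.1, 355 and 373, a log2 difference of 3.10 (SE 0.51; edgeR adjusted p = 0.0363). Gbp6 stood at 6.98, 1.77, 150 and 124, Gbp7 at 64.6, 43.0, 505 and 342, and Igtp at 9.89, 12.9, 155 and 124. These 4 were the edgeR calls of the list. Iigp1, which DESeq2 called and edgeR did not, had a comparable separation at 13.4, 15.1, 421 and 295 (edgeR adjusted p = 0.0680, DESeq2 0.0361), as did Gbp2, which neither called, at 25.6, 16.0, 302 and 218 (0.0751 by edgeR). Gbp genes are similar in sequence, so the share of each member is uncertain, while the summed list is less affected.

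**Figure D2:**
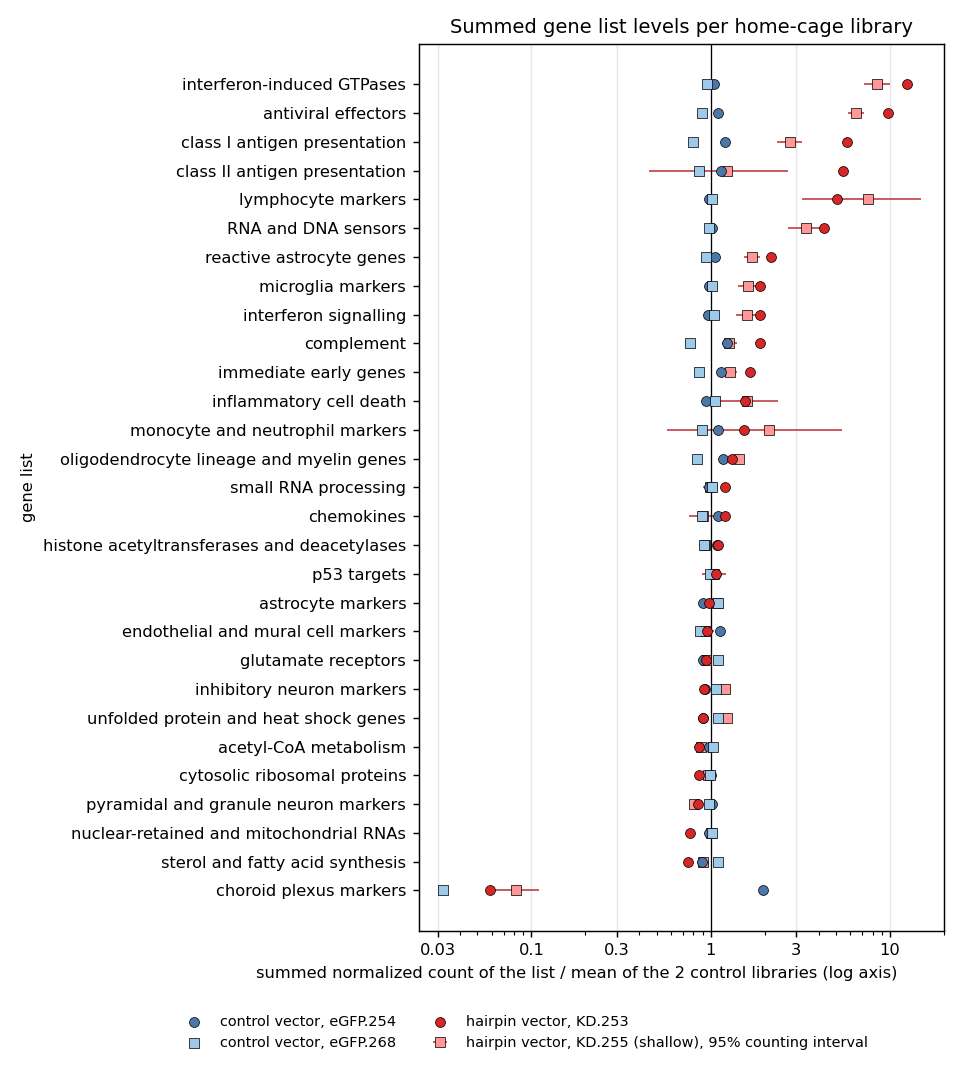
Summed normalized count of each gene list divided by its mean over the 2 control libraries (log axis), with 1 point per home-cage library and the exact 95% counting interval for the shallow KD.255. The antiviral effectors stood at 9.77 in KD.253 and 6.47 in KD.255, the GTPases at 12.4 and 8.51, and most neuronal and housekeeping lists lay near 1; the choroid plexus row is set by eGFP.254.

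Genes of class I antigen presentation, which shows peptides to CD8 T cells, were higher by smaller amounts. H2-D1, a class I heavy chain (chromosome 17, 35262730 to 35267499, plus strand), stood at 30.2, 27.9, 177 and 124, a log2 difference of 2.31 (SE 0.42; edgeR adjusted p = 0.0365). The heavy chain gene H2-K1 stood at 77.9, 50.6, 570 and 171, and the light chain gene B2m at 492, 274, 2923 and 1166. In both, KD.255 lay clearly below KD.253, and neither was called by edgeR or DESeq2. Heavy chain genes resemble each other, so reads may be split among them in ways that cannot be seen here.

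All 16 tested class I genes were higher, with a median of 1.81, and 8 of 9 with enough reads lay above both controls. H2-D1, with a control mean of 29.1, had enough reads only through the hairpin libraries. The median was 2.71 in KD.253 and 1.43 in KD.255, so the 2 hairpin libraries differed more here than for the effectors. The list included the transporter gene Tap1, at 8.72, 3.99, 49.4 and 0, where 0 reads in KD.255 allow up to 46.7. Nlrc5, the transactivator of class I genes, stood at 6.40, 7.54, 127 and 31.1 and was called by DESeq2 (adjusted p = 0.00162).

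Genes of class II presentation, which shows peptides to CD4 T cells, were mostly high in KD.253 alone. The invariant chain gene Cd74 stood at 16.9, 4.44, 123 and 15.6, and H2-Ab1 at 16.9, 4.88, 105 and 15.6. The summed list had 148, 146 and 626 reads in the deep libraries and 6 in KD.255 (interval 2.20 to 13.1), where the control mean would give 4.85. Cd86, a costimulatory gene of the same cells, was the member above both controls in both, at 8.14, 12.0, 52.7 and 46.7. Its KD.255 value was 3 reads, with a counting interval of 9.62 to 136 that reached below the eGFP.268 value. None of the 5 tested genes was called by edgeR or DESeq2.

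Chemokine genes held members that were far higher with the hairpin vector and members that overlapped. Ccl5, which attracts T cells (chromosome 11, 83525778 to 83530518, minus strand), stood at 5.23 and 3.10 in controls and at 107 and 109 in hairpin libraries, from 9, 7, 163 and 7 reads. It had the lowest edgeR adjusted p, 0.00200, with a log2 difference of 4.43 (SE 0.54). Cxcl10, which attracts activated T cells through Cxcr3 (chromosome 5, 92346638 to 92348889, minus strand), stood at 0, 2.22, 70.5 and 140 (5.81, SE 1.04, edgeR adjusted p = 0.0363). The related Cxcl9 stood at 0.582, 0, 75.8 and 31.1 and was not called. Cx3cl1, a chemokine of neurons that acts on microglia, overlapped at 1851, 1507, 1786 and 1259.8, and Cxcl12 at 342, 241, 302 and 202. Of 8 tested chemokine genes 5 were higher and 3 lower, with a median of 2.59 that turns negative, at -0.19, when only genes with a mean of at least 50 are kept.

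The 3 edgeR-called genes outside the lists were Cd274, Pyhin1 and Gm4841. Cd274, which encodes the T-cell checkpoint ligand PD-L1 (chromosome 19, 29367455 to 29388095, plus strand), stood at 12.8, 11.5, 112 and 124, with 8 reads in KD.255. Pyhin1, of a family of interferon-inducible nuclear proteins, stood at 1.16, 1.77, 49.4 and 31.1. Gm4841 had 0 and 2 reads in controls, 51 in KD.253 and 2 in KD.255. Of the 32 genes that DESeq2 called and edgeR did not, 22 were in the lists. The 10 others were AI607873, Abca1, Apod, Clec7a, F830016B08Rik, Gm12250, Gm1966, Ly9, Pik3ap1 and Samd9l. They were named after their values were seen. Abca1, a cholesterol exporter, stood at 181, 255.02, 594 and 638, and Clec7a, the glucan receptor dectin-1 of activated microglia, at 8.14, 4.44, 73.8 and 93.3.

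**Figure D3:**
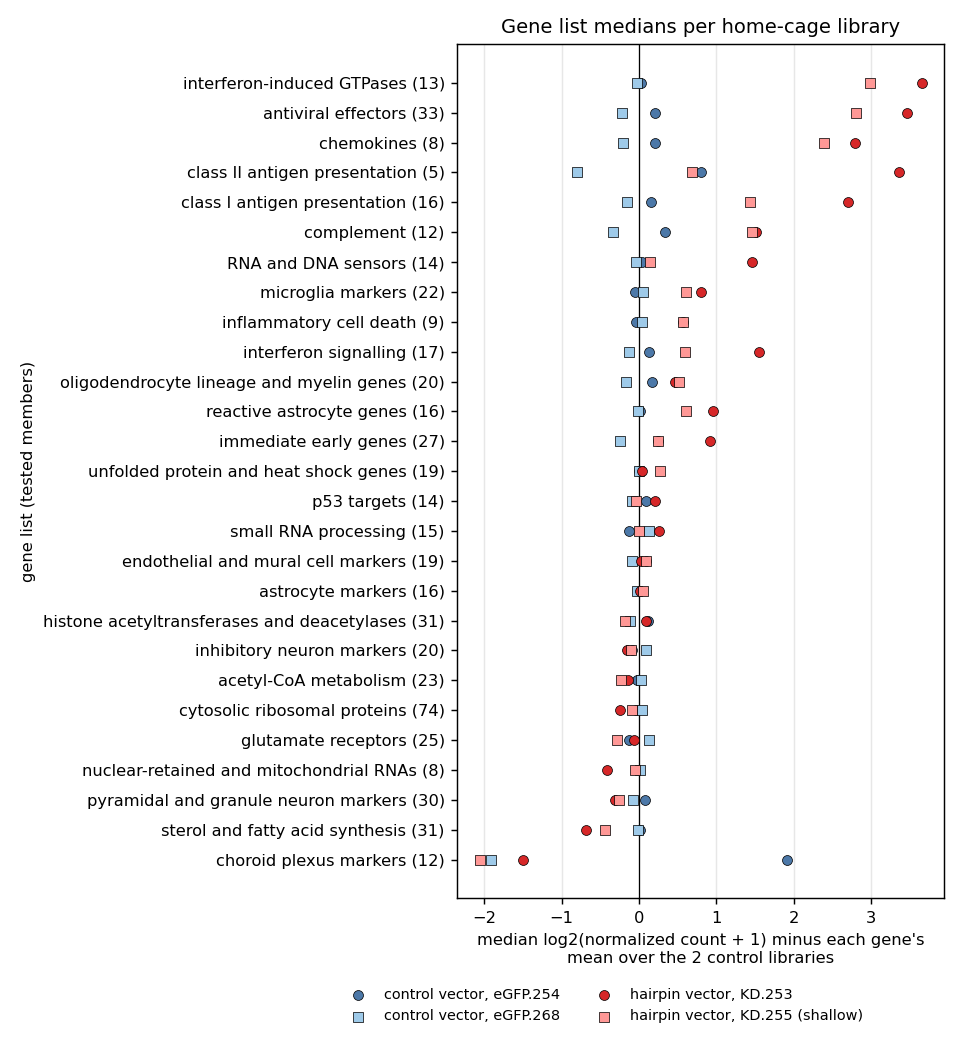
Median over the tested members of each gene list of log2(normalized count + 1), after subtracting each gene's mean over the 2 control libraries, with 1 point per home-cage library; the number of tested members is in brackets and lists with fewer than 5 are left out. The GTPases and antiviral effectors lie at 2.81 or above in both hairpin libraries, class II in KD.253 alone (3.36 against 0.69 in KD.255), and the sterol list at -0.69 and -0.44.

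Markers of cell types that could carry these transcripts were read beside them. Microglia genes were modestly higher: 18 of 22 tested members had a positive difference, with a median of 0.65, and the summed reads were 4002, 5424, 6791 and 245 (interval 215 to 278), where KD.255 would have had 152. That is 1.89 and 1.61 times the control mean. The gene Ctss, described below, held 532, 917, 1917 and 59 of these reads. The receptor gene Csf1r stood at 188, 210, 353 and 358, and the homeostatic genes P2ry12 (183, 178, 193 and 140) and Tmem119 (47.7, 33.3, 69.9 and 31.1) overlapped. Ctss, which encodes a lysosomal protease, stood at 309, 407, 1263 and 918 and was the 1 microglia list gene that DESeq2 called (adjusted p = 0.000920). The part of microglia number or state in the interferon gene differences was not tested.

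Lymphocyte markers were scarce, and higher in the hairpin libraries. The 20 genes summed to 28, 38, 128 and 8 reads (interval of the last 3.45 to 15.8, against 1.07 at the control mean). That is 5.09 and 7.51 times the control mean. In KD.255, 14 of the 20 were at 0, the T-cell receptor chain genes Cd3d and Cd3e among them. In KD.253, 2 were at 0, and in the controls 14 and 10, so KD.255 had as many markers at 0 as the deeper eGFP.254. Cd3e stood at 0, 0, 7.25 and 0, and the cytotoxic T-cell gene Cd8a at 0, 0, 1.98 and 15.6. Single-gene values this low rest on few reads, with 1 read for Cd8a in KD.255. The part of lymphocytes in the chemokine, class I and class II values was not tested. Monocyte and neutrophil markers summed to 56, 60, 69 and 4 reads, and 14 of those 16 genes were at 0 in KD.255.

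Most complement genes and part of the reactive astrocyte genes had positive differences, and none of either list was called. C4b, a complement component made by glia, stood at 106, 115, 873 and 358, and C3, the central component, at 14.0, 7.98, 227 and 31.1, with 2 reads in KD.255. Of 12 tested complement genes 11 were higher, with a median of 1.51. Gfap, the filament gene of reactive astrocytes, stood at 2209, 1886, 4875 and 4090.3, a log2 difference of 1.13 with an edgeR adjusted p of 0.468. Vim, another filament gene, stood at 197, 148, 556 and 296, and Osmr, a cytokine receptor, at 32.6, 46.6, 127 and 109. Serpina3n, a secreted protease inhibitor of reactive astrocytes, overlapped at 179, 218, 393 and 202. Of 16 tested reactive astrocyte genes 11 were higher and 5 lower, and of 8 with enough reads 4 lay above both controls and 1 below. Osmr among them, with a control mean of 39.6, had enough reads only through the hairpin libraries. The general astrocyte markers split evenly, 8 higher and 8 lower, with a median of 0.0040.

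Oligodendrocyte genes leaned higher. In the 20 tested genes 18 were higher, with a median of 0.50, and 13 of 19 with enough reads lay above both controls. Trf, transferrin, which oligodendrocytes make to carry iron, stood at 484, 406, 1198 and 793 and was called by DESeq2 (adjusted p = 0.00311). The major myelin gene Mbp (7021, 4689, 7086 and 7309.7) showed a smaller gap than that between the 2 controls.

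Markers of pyramidal and granule neurons leaned lower. Of 30 tested genes 26 were lower, with a median of -0.33, and of 27 with enough reads 9 lay below both controls and 0 above. Camk2a, the kinase of excitatory synapses, stood at 29279, 30463, 26547 and 25708, a log2 difference of -0.19 that neither tool called. Wfs1, a marker of CA1 pyramidal cells, stood at 792, 442, 413 and 311, so the controls differed from each other more than eGFP.268 differed from either hairpin library. The summed neuron markers stood at 0.850 and 0.806 of the control mean. Inhibitory neuron markers had a median of -0.09, with 7 of 20 higher and 13 lower, and that median changed sign without eGFP.268.

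No gene was called lower by limma, edgeR or DESeq2. The 10 lower genes with the smallest limma p, among those with a mean of at least 100 and no overlap between the vectors, included Aifm3, Thy1, Gnb5, Prmt8, Dgat2, Fbxl16, Josd1, Kcnab3 and Thyn1. They were chosen by this contrast, so their differences only describe it. Thy1, a surface glycoprotein of neurons (chromosome 9, 44043384 to 44048579, plus strand), stood at 1991, 2016, 1157 and 1119.8, from 3423, 4546, 1755 and 72 reads. The 2 libraries of each vector lay close together, and the log2 difference was -0.82 (SE 0.21), with adjusted p of 0.785 by limma, 0.447 by edgeR and 0.187 by DESeq2. Fbxl16, a brain-rich F-box protein (chromosome 17, 25809085 to 25821255, plus strand), stood at 5199.95, 4353, 2031 and 2784 (DESeq2 adjusted p = 0.0740).

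**Figure D4:**
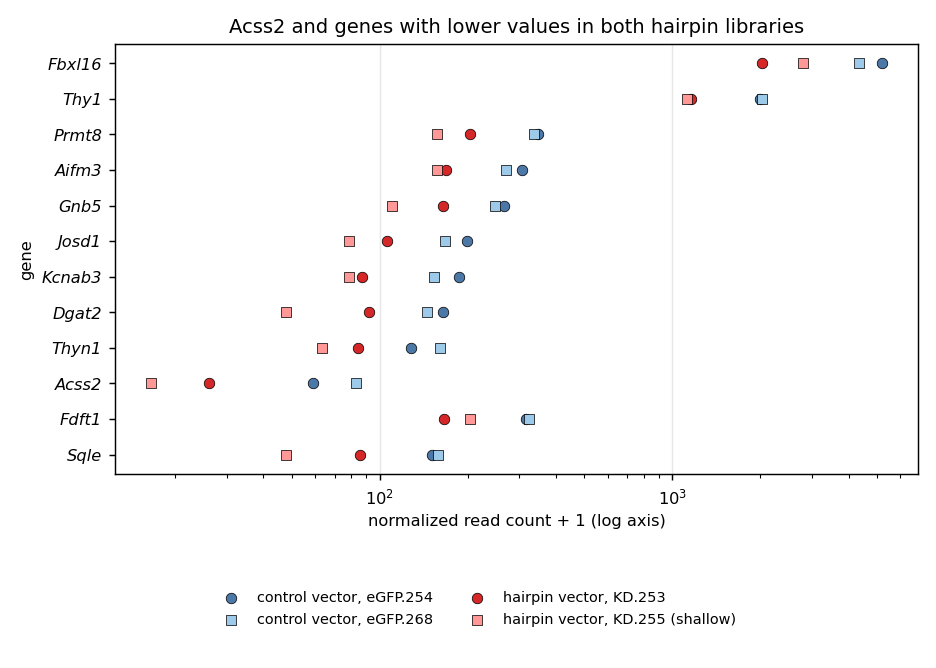
Normalized read count plus 1 (log axis) of 9 of the 10 lower genes, Acss2 and the sterol genes Fdft1 and Sqle, with 1 point per home-cage library. Both hairpin points lie to the left of both control points in each row, by amounts that no test called. Thy1, for example, stood at 1157 and 1119.8 against 1991 and 2016. Several KD.255 points rest on few reads, with 3 in Dgat2, 4 in Thyn1 and 5 each in Josd1 and Kcnab3. The counting interval of KD.255 reached at least the lower control for Acss2, Aifm3, Fdft1, Josd1, Kcnab3 and Thyn1.

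Most sterol synthesis genes had small negative differences, and none of the list was called. This pathway builds cholesterol from acetyl-CoA. Of 31 tested sterol and fatty acid synthesis genes 28 were lower and 3 higher, with a median of -0.61. Of 25 with enough reads 14 lay below both controls and 1 above, the regulator gene Srebf1. Fdft1, squalene synthase, stood at 315, 322, 164 and 202 (-0.80, edgeR adjusted p = 0.541), and Sqle, squalene epoxidase, at 149, 157, 84.4 and 46.7. In both genes the vectors did not overlap, and neither was called. KD.255 held 13 reads of Fdft1, with a counting interval of 108 to 346 normalized counts that reached past both controls. It held 3 reads of Sqle, with an interval of 9.62 to 136, below both controls.

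Summed reads gave a smaller gap in the shallow library. The sterol list stood at 0.747 of the control mean in KD.253 and at 0.908 in KD.255, where 637 reads (interval 588 to 688) met 702 at the control mean. KD.255, at 9907 summed normalized counts, lay above eGFP.254, at 9806, so the vectors overlapped for the summed list. The controls themselves differed, with eGFP.254 at 0.816 of eGFP.268. Hmgcs1, at the entry of the pathway, overlapped at 521, 848, 291 and 638. Mvd, Idi1 and Stard4 had no read in KD.255, which allows up to 46.7 normalized counts, so their differences are not given. The fatty acid synthase gene Fasn overlapped at 630, 616, 670 and 498.

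Other enzymes of acetyl-CoA supply showed no call. Acss1, the mitochondrial relative of Acss2, stood at 109, 137, 107 and 62.2. Acly, which makes acetyl-CoA from citrate, stood at 448, 393, 417 and 218. Of 23 tested genes of acetyl-CoA metabolism 7 were higher and 16 lower, with a median of -0.14. Histone acetyltransferase and deacetylase genes divided 15 to 16 around a median of -0.014, whose sign depended on the setting. Ep300, an acetyltransferase gene, and Hdac2, a deacetylase gene, differed by 0.35 and -0.46 on the log2 scale, and neither was called. The small RNA processing genes, which a hairpin vector draws on, had 9 of 15 higher and 6 lower, with a median of 0.08.

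Immediate early genes, which neurons switch on with activity, leaned higher in untrained hairpin mice. Fos stood at 37.8, 15.5, 87.7 and 140, Arc at 523, 271, 920.1 and 902, and Egr2 at 11.6, 7.54, 68.5 and 109. DESeq2 called these 3 (adjusted p of 0.0294, 0.0355 and 0.000422) and edgeR did not (0.146, 0.218 and 0.0618). Egr1 stood at 1438, 706, 2561 and 1742, so the gap between the 2 controls was wider than that between the nearest libraries of the vectors. Of 27 tested genes 21 were higher, with a median of 0.45, 0.92 in KD.253 and 0.25 in KD.255, and 12 of 20 with enough reads lay above both controls. Fos and Egr2 among them, with control values under 46.7, had enough reads only through the hairpin libraries. The activity genes Jun (736, 510, 732 and 544) and Egr3 (578, 565, 594 and 435) overlapped. Cdkn1a, the cell cycle inhibitor that p53 induces, stood at 20.9, 16.4, 56.7 and 77.8 without a call, and p53 target genes overall had 8 of 14 higher.

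The trained mice of the study gave a second set of 4 libraries that share none with this comparison. For the 23 edgeR-called genes the hairpin minus control log2 difference in trained mice was positive in all 23, from 1.60 for Cd274 to 5.25 for Ccl5, with a median of 2.98 against 4.18 in home-cage mice. It was smaller than in home-cage mice for 21 of the 23. The 23 genes were chosen on the home-cage contrast, which favours high values there, and the trained hairpin libraries differed strongly from each other. Ifit3 stood at 1023 in KD.249 and 268.3 in KD.251, against 21.7 and 51.2 in the trained controls. The test of the difference between the 2 vector effects called 0 of 12681 genes by limma, with 112 at an unadjusted p under 0.05, and 0 by edgeR (98) and DESeq2 (52). A larger effect in home-cage mice was therefore not shown for any gene.

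**Figure D5:**
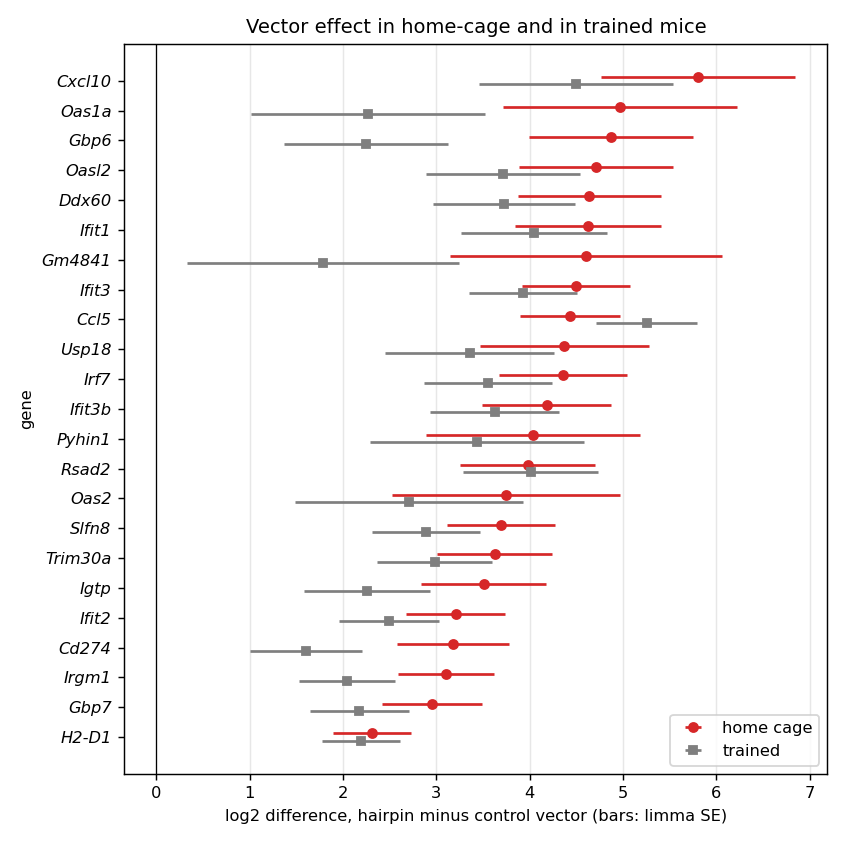
Hairpin minus control log2 difference of the 23 edgeR-called genes in home-cage mice (red circles) and in trained mice (grey squares), on the log2(normalized count + 1) scale, with bars of 1 limma standard error. All points lie above 0, and the grey square lies left of the red circle in 21 of the 23 genes.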

How the data were processed

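Polyadenylated RNA from dorsal hippocampus was sequenced in 8 libraries, 2 in each of 4 groups. The build mm10, the aligner STAR 2.3.0, the counter HTSeq 0.6.1, bcl2fastq 02.14.01.07, bedtools and DESeq are named, without settings, per the submitters' processing notes. For settings, annotation and strand, the sources used here give nothing, so reads of a gene and an overlapping antisense gene cannot be told apart. The authors deposited a normalized signal per gene and library. All deposited values (100%) were whole multiples of the library's smallest value above 0, to a relative tolerance of 1e-06, so whole reads were recovered by dividing by it. The table held 24498 genes and 5 summary entries, which held between 34.5% and 39.5% of a library's reads and stayed out of sizes and tests.

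The main test was limma 3.58.1 (R 4.3.3) with an intensity trend on log2(normalized count + 1), over 12681 genes whose mean reached at least 10. The spread was estimated from all 8 libraries, with 4 residual degrees of freedom. Log2 differences are on that scale, which understates those of low genes. The contrast was hairpin minus control vector in home-cage mice, with Benjamini-Hochberg adjustment at 0.05. edgeR 4.0.16 (quasi-likelihood, TMM scaling) and DESeq2 1.42.0 were run on the recovered reads. The programs were tested on simulated data. Intervals are exact Poisson intervals (95%) and, like floors of 3 reads, cover counting error only, since reads carried no molecular identifiers. Genes were named by rule: Acss2, each edgeR call, the 10 smallest limma p in each direction among genes with a mean of at least 100 and no overlap, and the leading members of 29 gene lists with 658 entries, of which 551 were tested. The comparison, its members and the lists were chosen with earlier results of these data known. Some genes that the rule takes are not reported here. No set test was run. Of 23 edgeR-called genes, 17 matched a promoter window by symbol. With 2 libraries against 2, an exact permutation test cannot go below p = 0.333, so none is given.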

Additional observations from a re-analysis of the deposited data

How the results depend on the processing

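By limma 0 genes passed, and the count under other settings was 1 with a pseudocount of 10, 1 with limma-voom, 24 with the 4 home-cage libraries alone, 23 by edgeR and 55 by DESeq2. With 2 sets of libraries as a term (eGFP.266 and eGFP.268 against the other 6, by the numbers in the column names, whose meaning the labels do not give) it was 0 by limma and 5 by edgeR, 4 of these among the 23. Without both shallow libraries, KD.255 and KD.251, a setting chosen after seeing the data, it was 67 by limma and 100 by edgeR. Leaving out 1 library at a time gave 0 to 1293 genes by limma and 0 to 102 by edgeR. The 1293, of which 1147 were lower, arose without KD.253, which leaves the hairpin group with the shallow KD.255 and its many genes at 0 as a lone library assumed to vary like the other groups. By limma the count was 21 without KD.249 and 26 without KD.251. By edgeR it was 101 without KD.249, 102 without KD.251, 63 without eGFP.250 and 52 without eGFP.266. The 23 edgeR-called genes kept a positive difference in each setting that tested them, and a minimum mean of 50 left 17 of them. Both hairpin libraries lay above both controls in all 23, so leaving out 1 library could not reverse their sign. The difference of the vector effects between home-cage and trained mice gave 0 calls in each setting run except limma without KD.253 (710). Leave-one-out values of that count ran from 0 to 710. Acss2 was lower in each of the 29 settings, from -1.29 to -2.17, and passed in limma without KD.253 (-2.08, adjusted p = 0.0305), a value that rests on 1 read. Of 29 list medians 19 kept their sign in each setting; that of the choroid plexus list, -1.70, became 0.21 by limma without eGFP.254. No paired analysis was possible because the deposited columns carry no replicate number that matches the labels. At the depth of KD.255, genes under about 46.7 normalized counts could not be shown to be lower.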

Other observations

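Genes of brain vessels, cell death and synaptic transmission add values that the report does not use. Ly6a, an interferon-inducible surface gene that marks brain endothelium, stood at 28.5, 24.4, 105 and 109 in eGFP.254, eGFP.268, KD.253 and KD.255, with 7 reads in KD.255, and edgeR did not call it (adjusted p = 0.581). The other vessel genes did not share this gap: Cldn5, of the tight junctions, stood at 54.1, 43.9, 49.4 and 62.2, and Flt1, a receptor of vessel growth factor, at 241, 330, 273 and 279.9. Of 19 tested endothelial and mural genes 10 were higher and 9 lower.

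Among genes of inflammatory cell death, Gsdmd, which encodes the pore protein of pyroptosis, stood at 5.82, 6.21, 21.7 and 31.1, and Mlkl, the executor of necroptosis, at 1.16, 0.887, 18.5 and 15.6, with 2 and 1 reads in KD.255. Of 9 tested members 6 were higher, and none was called. The interneuron peptide genes Sst (1557, 1164, 1441 and 2691) and Npy (954, 1061, 1193 and 1959.6) were high in KD.255, from 173 and 126 reads, while KD.253 lay within the control range for Sst and near it for Npy. Glutamate receptor genes had 8 of 25 higher and a median of -0.18, and Gria1, the main AMPA receptor subunit gene, stood at 6661, 6944, 6319 and 5350.1.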
